A study of Homo sapiens with 6 samples.

Results

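The genes described here are 9 genes of MHC class I antigen presentation: the heavy chains HLA-B, HLA-C, HLA-E and HLA-F, the light chain B2M, the peptide transporter subunits TAP1 and TAP2, the loading factor TAPBP (tapasin) and the transcriptional coactivator NLRC5. They were chosen by symbol, as the rows of the count table that carry one of these names, a list drawn up with earlier results of these data known; the rule itself uses no measured value. They are 9 of the 60676 genes listed, and all 9 had enough counts to be tested. HLA-G and other genes of the pathway are given beside them as comparison.

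MHC class I molecules carry short peptides of cytosolic proteins to the cell surface, where CD8+ T cells and natural killer cells read them. The proteasome cuts the peptides, the TAP1-TAP2 transporter pumps them into the endoplasmic reticulum, aminopeptidases trim them there, and tapasin with calreticulin and PDIA3 loads them onto a heavy chain paired with β2-microglobulin. The promoters of these genes respond to interferon through sites for IRF and STAT factors, and those of the heavy chains and B2M also hold a composite element bound by RFX, CREB and NF-Y, which NLRC5 joins as a coactivator. Ewing sarcoma is known for low surface MHC class I.

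The RNA came from TC71, an Ewing sarcoma cell line. All cells carried a lentiviral vector with a Dox-inducible shRNA and a GFP marker, and were polyclonal lines kept under puromycin, so no line was a single clone. The 6 libraries fell into 2 groups of 3, one with a non-targeting shRNA as control (shNTC+Dox), the other with an shRNA to EHD1 (shEHD1+Dox), an endosomal traffic protein that the study examined for its part in the delivery of IGF1R to the cell surface. Both groups received 0.5 µg/ml Dox for 3 days, and cells without Dox were not analysed here. The sources used here do not state which of the EHD1 shRNAs was expressed, and the labels do not say whether the libraries of a group came from separate cultures, so the p-values measure the spread between these libraries, which may be technical. The comparison is between cells carrying different shRNAs. EHD1 depletion cannot be told apart here from other differences between the transduced lines or from other effects of the shRNA. Below, rose and fell mean higher and lower in shEHD1+Dox than in shNTC+Dox.

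The libraries held between 22711235 and 30582187 counts. Over all genes, shNTC+Dox replicate 3, the smallest, stood apart from the other controls, with a chi-square of the counts of 26.6 and 28.1 per degree of freedom against 5.61 between replicates 1 and 2. Among the shEHD1+Dox libraries, replicate 2 stood apart by 18.6 and 17.2 against 7.68. EHD1 was present at 27.1, 28.0 and 26.4 CPM (counts relative to library size, scaled by TMM factors) in shNTC+Dox and at 7.55, 7.15 and 9.37 CPM in shEHD1+Dox, a log2 fold change (log2 FC) of -1.76 (standard error, SE, 0.12, edgeR adjusted p = 1.35e-04). Markers of Ewing sarcoma cells summed to 1255 to 1313 CPM in shNTC+Dox and 1293 to 1410 CPM in shEHD1+Dox, with all 7 listed genes detected. Within this sum, CD99 was higher in shEHD1+Dox (log2 FC 0.33, edgeR adjusted p = 0.0293) and STEAP1 lower (-0.43, 0.00443). NKX2-2 had -0.40 (0.0650). Of the 7 genes, 2 were higher and 2 lower without overlap between the groups. Of all 16785 genes tested, 3340 were higher and 3263 lower in this way. Leukocyte markers, of which 3 of 7 had no count in any library, summed to 0.19 to 0.58 CPM and 0.12 to 0.29 CPM, and endothelial markers, of which 2 of 4 had no count, to at most 0.11 CPM. The 5 fibroblast markers, all detected, summed to 191 to 237 CPM and 359 to 417 CPM. This sum moved with the groups through COL3A1, a fibrillar collagen gene, at 194 ± 20.7 and 359 ± 29.0 CPM, while DCN, a second fibroblast gene, was at 4.85 ± 0.53 and 2.40 ± 0.25 CPM (SD, n = 3 each). Its part in the class I values was not tested. In bulk RNA, fewer cells of a type and less RNA per cell cannot be told apart.

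Of the 16785 genes tested with edgeR's quasi-likelihood test, 8.59% passed an adjusted p of 0.05 as higher in shEHD1+Dox and 8.75% as lower, and the median log2 FC was 0.0008. Of the 9 class I genes, 2 rose, HLA-E and TAPBP, and none fell. At an unadjusted p under 0.05, 5 of the 9 were higher and 0 lower, against 16.0% and 16.3% of all genes tested, and DESeq2 called 2 higher and 0 lower, against 10.5% and 11.1%. None of the 9 reached a 2-fold change at an adjusted p under 0.05, which 2.82% of all genes did (0 also at an unadjusted p under 0.05, and 0 by DESeq2). In 5 of the 9, namely HLA-C, HLA-E, TAP1, TAP2 and TAPBP, every shEHD1+Dox library lay above every shNTC+Dox library, a pattern that 19.9% of all tested genes showed. Fitted log2 FCs were above 0 for 7 of the 9 and below 0 for HLA-B and NLRC5, with a median of 0.25. Of all 16785 genes tested, 8406 were above 0. Of all tested genes with a log2 FC between 0.25 and 0.65, 33.2% passed the adjusted threshold. That range spans the fitted values of HLA-C, HLA-E, TAP1, TAP2 and TAPBP, of which 2 were called, so this share is descriptive only. With 3 libraries against 3, an exact permutation test of a single gene cannot give a p below 0.1.

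The promoters of the class I genes are shown first. The choice of genes by name used no sequence, but the motifs were picked after these promoters were seen. RefSeq start sites on GRCh38.p14 gave a promoter for 7 of the 9 genes, HLA-B, HLA-C, HLA-F, B2M, TAP1, TAP2 and TAPBP. None was available for NLRC5 or for HLA-E, which was called. Each sequence below is the 250 bases before the start, read 5′ to 3′ on the gene's strand, for genes that were higher in every shEHD1+Dox library (TAPBP, TAP2, TAP1, HLA-C) and for HLA-B and B2M, whose groups overlapped. Capitals mark every match, on either strand, to TTTCNNTT, the core of the element that IRF factors bind; where matches overlap they are merged.
TAPBP, chr6:33314079-33314328, minus strand: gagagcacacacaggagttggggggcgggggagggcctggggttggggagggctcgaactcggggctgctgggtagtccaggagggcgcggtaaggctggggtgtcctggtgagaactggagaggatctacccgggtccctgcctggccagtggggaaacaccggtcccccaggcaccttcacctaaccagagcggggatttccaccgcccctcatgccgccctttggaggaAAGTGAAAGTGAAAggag
TAP2, chr6:32838740-32838989, minus strand: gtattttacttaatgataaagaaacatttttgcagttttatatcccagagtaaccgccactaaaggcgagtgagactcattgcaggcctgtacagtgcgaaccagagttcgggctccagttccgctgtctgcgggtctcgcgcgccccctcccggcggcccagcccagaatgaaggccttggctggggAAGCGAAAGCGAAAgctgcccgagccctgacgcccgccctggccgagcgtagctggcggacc
TAP1, chr6:32853705-32853954, minus strand: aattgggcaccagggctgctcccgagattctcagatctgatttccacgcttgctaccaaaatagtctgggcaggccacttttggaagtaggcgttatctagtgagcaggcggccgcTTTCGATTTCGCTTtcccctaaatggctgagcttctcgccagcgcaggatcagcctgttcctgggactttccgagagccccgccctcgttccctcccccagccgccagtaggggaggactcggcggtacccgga
HLA-C, chr6:31272093-31272342, minus strand: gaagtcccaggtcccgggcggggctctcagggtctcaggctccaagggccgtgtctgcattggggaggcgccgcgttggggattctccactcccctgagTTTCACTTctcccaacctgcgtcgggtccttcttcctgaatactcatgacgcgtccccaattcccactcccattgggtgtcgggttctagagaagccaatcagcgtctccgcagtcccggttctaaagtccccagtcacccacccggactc
HLA-B, chr6:31357180-31357429, minus strand: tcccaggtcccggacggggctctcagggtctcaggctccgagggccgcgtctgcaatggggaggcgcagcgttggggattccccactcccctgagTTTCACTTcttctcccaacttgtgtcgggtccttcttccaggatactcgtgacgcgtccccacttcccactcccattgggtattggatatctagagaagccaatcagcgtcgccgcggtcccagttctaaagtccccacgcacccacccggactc
B2M, chr15:44711267-44711516, plus strand: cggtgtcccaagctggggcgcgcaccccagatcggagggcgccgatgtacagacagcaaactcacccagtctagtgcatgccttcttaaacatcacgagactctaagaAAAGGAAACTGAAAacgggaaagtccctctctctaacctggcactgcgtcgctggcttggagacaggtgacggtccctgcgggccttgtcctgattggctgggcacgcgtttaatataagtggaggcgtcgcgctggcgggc

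The core TTTCNNTT lay in the 250 bases of all 7 genes with a promoter, against 20.3% of all 35116 promoters of that length. Since the motifs were picked after these promoters were seen, the shares here describe the genes and test nothing. A gene was counted if any of its promoters matched, while the share of all is per promoter. The copy sat 144 bases before the start in HLA-C, 148 in HLA-B and 149 in HLA-F. TAP1, TAP2, TAPBP and B2M each held overlapping copies, which in TAPBP ended 5 and 11 bases before the start, in TAP2 49 and 55, in TAP1 121 and 127 and in B2M 129 and 135. TAP1 has a second RefSeq start whose 250 bases held no match. The longer form TTTCNNTTT, which contains the core, was found in 5 of the 7, HLA-F, B2M, TAP1, TAP2 and TAPBP, against 9.20% of all promoters. CCAAT, the letters that NF-Y binds, stood in 5 of the 7 (HLA-B, HLA-C, HLA-F, B2M and TAP1) against 32.0% of all. TGACG, the first letters of a CREB site, stood in 4 of the 7 (HLA-B, HLA-C, B2M and TAP2) against 21.2%. Each motif was searched on both strands, and a match describes the letters only. The core occurred both in genes whose groups were separate, such as TAPBP, and in genes whose groups overlapped, such as B2M and HLA-B.

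Levels between genes were compared as CPM per kilobase of the canonical transcript. In shNTC+Dox, B2M had by far the highest level, at a mean of 750.1, followed by HLA-E at 40.8, TAPBP at 20.7, HLA-C at 7.45, HLA-B at 3.999, TAP2 at 3.34, HLA-F at 1.58, TAP1 at 1.35 and NLRC5 at 0.30. Going down this order, the libraries of HLA-B and TAP2 overlapped, as did those of HLA-F and TAP1, and the other neighbours did not. In shEHD1+Dox, B2M was at 798.2, HLA-E at 57.3, TAPBP at 25.5, HLA-C at 9.24, TAP2 at 3.98, HLA-B at 3.30, TAP1 at 2.11, HLA-F at 1.68 and NLRC5 at 0.22. TAP2 and HLA-B, and TAP1 and HLA-F, had changed places on these means, each pair with overlapping libraries in both groups. The classical heavy chains HLA-B and HLA-C were thus far below the nonclassical HLA-E in either group.

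**Figure D1:**
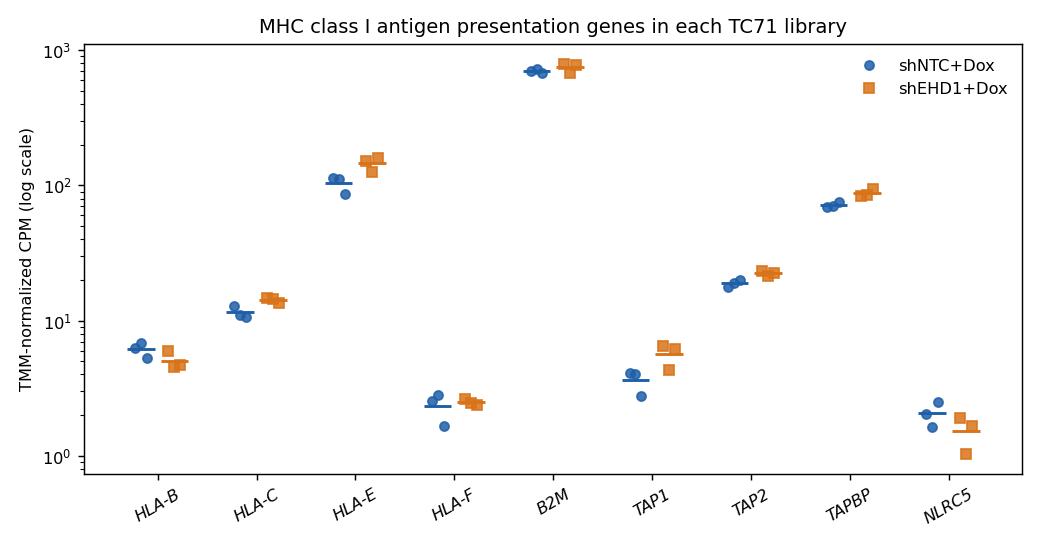
Level of each of the 9 genes in CPM (log axis) in the 3 shNTC+Dox and 3 shEHD1+Dox libraries; points are libraries and bars are group means. B2M lies between 681 and 798 CPM, HLA-E and TAPBP have separate groups with shEHD1+Dox higher, and HLA-B, HLA-F, B2M and NLRC5 overlap.

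Among the heavy chains, HLA-E rose and the others did not pass the test. HLA-E (ENSG00000204592, chromosome 6 from 30489509 to 30494194 in GRCh38, plus strand) is the nonclassical heavy chain that displays leader peptides of other class I chains to the NKG2A receptor of natural killer cells. Its level was 113.8, 112.1 and 85.9 CPM in the shNTC+Dox libraries and 151.5, 126.3 and 159.9 CPM in the shEHD1+Dox libraries. All shEHD1+Dox libraries were above all shNTC+Dox libraries, with shNTC+Dox replicate 3 the lowest and shEHD1+Dox replicate 2 the lowest of its group. The means were 104.0 ± 15.7 and 145.9 ± 17.5 CPM (SD, n = 3 each), which is 1.40-fold higher, with a log2 FC of 0.49 (SE 0.13, 95% confidence interval 0.20 to 0.77, edgeR adjusted p = 0.0308). The call was lost without shEHD1+Dox replicate 1 (0.46, edgeR adjusted p = 0.108) and without shEHD1+Dox replicate 3 (0.42, edgeR adjusted p = 0.114), and DESeq2 gave an adjusted p of 0.00199. Of the stretches of 75 bases in its canonical transcript, 2.30% also occur in another gene, mostly HLA-G.

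HLA-C (ENSG00000204525, chromosome 6 from 31268749 to 31272130, minus strand), a classical heavy chain and the main ligand of the KIR receptors, was at 12.9, 10.9 and 10.7 CPM in shNTC+Dox and at 14.7, 14.5 and 13.6 CPM in shEHD1+Dox. The groups did not overlap, and the nearest libraries were shNTC+Dox replicate 1 and shEHD1+Dox replicate 3. The log2 FC of 0.31 (SE 0.12, interval 0.04 to 0.58) did not pass after adjustment (edgeR adjusted p = 0.104). It stayed uncalled under every alternative run, with adjusted p-values from 0.0878 to 0.257.

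HLA-B (ENSG00000234745, chromosome 6 from 31353872 to 31367067, minus strand), the other classical heavy chain of the set, was at 6.31, 6.79 and 5.33 CPM in shNTC+Dox and at 5.94, 4.54 and 4.72 CPM in shEHD1+Dox. The groups overlapped through shEHD1+Dox replicate 1 and shNTC+Dox replicate 3. Its fitted log2 FC of -0.28 (SE 0.18, interval -0.68 to 0.12) did not pass (edgeR adjusted p = 0.311), and its counts were low, between 111 and 188 per library. Its exons share 2185 bases with other annotated genes, all of which had 0 counts.

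HLA-F (ENSG00000204642, chromosome 6 from 29722775 to 29738528, plus strand), a nonclassical heavy chain also found at the surface without peptide, was at 2.55, 2.82 and 1.66 CPM in shNTC+Dox and at 2.63, 2.45 and 2.36 CPM in shEHD1+Dox. The shEHD1+Dox libraries lay within the range of the controls. The log2 FC was 0.08 (interval -0.47 to 0.63, edgeR adjusted p = 0.854), and -0.11 without shNTC+Dox replicate 3, which had 37 counts. Reads from the antisense gene HLA-F-AS1, which had 3 to 11 counts a library and shares 535 exon bases, cannot be told apart, since the library kit keeps no strand.

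**Figure D2:**
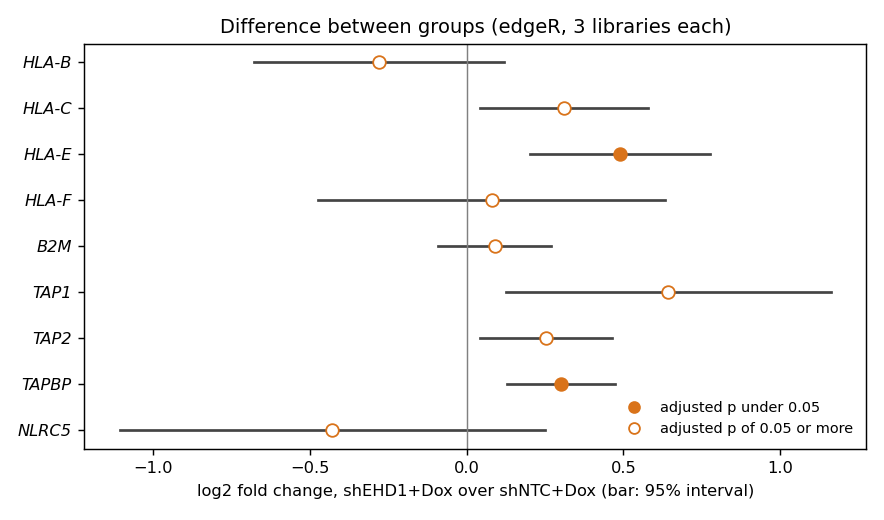
Log2 fold change of each of the 9 genes, shEHD1+Dox against shNTC+Dox, with 95% confidence intervals from edgeR; the filled points passed an adjusted p of 0.05. HLA-E at 0.49 and TAPBP at 0.30 passed, TAP1 at 0.64 had a wider interval of 0.13 to 1.16, and the intervals of HLA-B, HLA-F, B2M and NLRC5 span 0.

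The light chain did not pass. B2M (ENSG00000166710, chromosome 15 from 44711358 to 44718851, plus strand), which pairs with every class I heavy chain, was at 706, 732 and 684 CPM in shNTC+Dox and at 798, 681 and 779 CPM in shEHD1+Dox. The libraries shEHD1+Dox 1 and 3 were above all controls, and shEHD1+Dox 2 was below them. With 15277 to 24105 counts per library, the log2 FC of 0.09 had a narrow interval of -0.09 to 0.27 (SE 0.08, edgeR adjusted p = 0.477).

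Set against B2M, the sum of these 4 heavy chain genes was higher in shEHD1+Dox. HLA-B, HLA-C, HLA-E and HLA-F together came to 135.6, 132.7 and 103.5 CPM in shNTC+Dox and to 174.8, 147.8 and 180.5 CPM in shEHD1+Dox. The groups were separate, with a log2 ratio of the means of 0.44 (exact permutation p = 0.1, the smallest possible). HLA-E made up 83.0% to 88.6% of this sum, so the sum and its ratio to B2M largely restate the HLA-E difference. The ratio of this sum to B2M, both in CPM, was 0.192, 0.181 and 0.151 in shNTC+Dox against 0.219, 0.217 and 0.232 in shEHD1+Dox, again separate (log2 ratio 0.35, exact permutation p = 0.1).

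The shares of the heavy chain sum are not separate from the HLA-E difference, since a higher HLA-E level raises its own share. HLA-E made up 84.0%, 84.5% and 83.0% of the sum in shNTC+Dox, against 86.7%, 85.5% and 88.6% in shEHD1+Dox. This was a difference of 3.09 percentage points without overlap. HLA-B made up 4.65%, 5.12% and 5.15% in shNTC+Dox, against 3.40%, 3.07% and 2.61% in shEHD1+Dox, 1.95 points lower and also without overlap, although its own level had overlapped. The exact permutation p was 0.1 for both, while the shares of HLA-C and HLA-F overlapped between groups (p = 0.5 and 0.2). These shares depend on one another, since they add up to the whole, and a higher HLA-E level lowers the other shares.

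**Figure D3:**
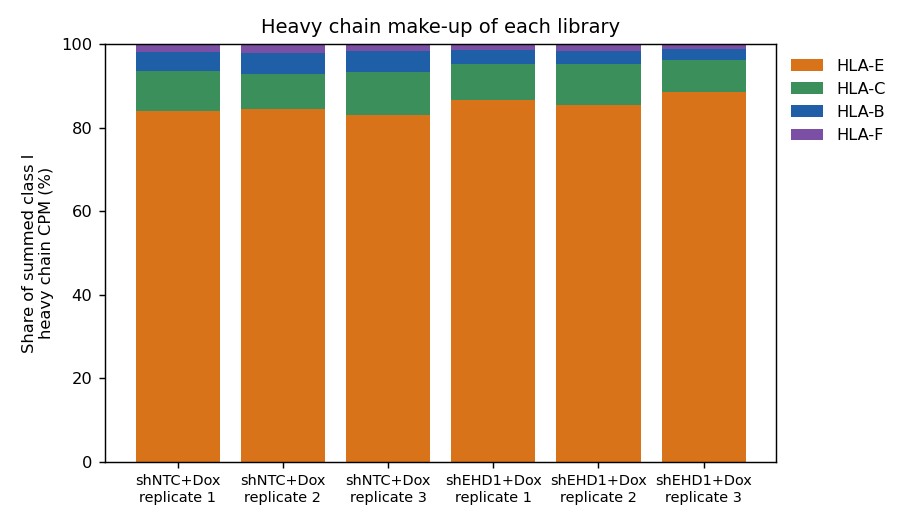
Share of the summed CPM of HLA-B, HLA-C, HLA-E and HLA-F (percent, axis from 0) held by each gene; each stacked bar is 1 of the 6 libraries. HLA-E holds between 83.0% and 84.5% in shNTC+Dox and between 85.5% and 88.6% in shEHD1+Dox, and HLA-B, HLA-C and HLA-F are the bands above it.

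For the peptide transporter, both subunits were higher in every shEHD1+Dox library, and neither passed the adjusted threshold. TAP1 (ENSG00000168394, chromosome 6 from 32845209 to 32853816, minus strand), which shares a bidirectional promoter with the immunoproteasome gene PSMB9, was at 4.10, 4.01 and 2.78 CPM in shNTC+Dox and at 6.53, 4.29 and 6.20 CPM in shEHD1+Dox. Its lowest shEHD1+Dox library, replicate 2, was just above the controls. TAP1 had the largest fitted log2 FC of the 9, 0.64, and a wide interval (0.13 to 1.16, SE 0.23, edgeR adjusted p = 0.0868), from 62 to 192 counts per library. It shares 672 exon bases with the antisense gene PSMB8-AS1, which had at most 4 counts. Leaving out each library in turn moved it between 0.49 and 0.81, with adjusted p-values from 0.0583 to 0.262.

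TAP2 (ENSG00000204267, chromosome 6 from 32821833 to 32838739, minus strand), the other transporter subunit, was at 17.7, 19.0 and 19.8 CPM in shNTC+Dox and at 23.3, 21.4 and 22.7 CPM in shEHD1+Dox. The groups were separate and the libraries of each lay close together. The log2 FC was 0.25 (SE 0.09, interval 0.04 to 0.46, edgeR adjusted p = 0.0932), and it passed without shNTC+Dox replicate 3 (0.29, edgeR adjusted p = 0.0477). A second gene model on the same strand, AL669918.1, shares 2023 exon bases with TAP2, and 35.0% of the stretches of 75 bases in TAP2 also occur in another gene. AL669918.1 had counts of 0, 26 and 0 in shNTC+Dox, against 57, 0 and 0 in shEHD1+Dox, and the sum of both genes had a log2 ratio of 0.27. TAP1 stood at 0.232, 0.211 and 0.140 of the TAP2 level in shNTC+Dox and at 0.281, 0.200 and 0.274 in shEHD1+Dox, with overlapping groups (exact permutation p = 0.3).

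TAPBP, or tapasin, the chaperone that bridges TAP and the empty heavy chain, rose. The gene (ENSG00000231925, chromosome 6 from 33299694 to 33314284, minus strand) was at 68.7, 69.9 and 75.9 CPM in shNTC+Dox and at 84.0, 85.4 and 94.7 CPM in shEHD1+Dox. Every shEHD1+Dox library was above every control, and replicate 3 was the highest of each group. The means were 71.5 ± 3.83 and 88.0 ± 5.82 CPM (SD, n = 3 each), 1.23-fold higher, with a log2 FC of 0.30 (SE 0.08, interval 0.13 to 0.47, edgeR adjusted p = 0.0285). The direction held without each library in turn (0.24 to 0.34), but the call held in only 1 of these 6 fits, that without shNTC+Dox replicate 3; the others had adjusted p-values of 0.0994 and 0.0832 (without shNTC+Dox 1 or 2) and 0.0645, 0.0510 and 0.111 (without shEHD1+Dox 1, 2 or 3). A non-coding gene on the other strand shares 1397 exon bases with TAPBP and is not listed in the table.

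NLRC5 (ENSG00000140853, chromosome 16 from 56989485 to 57083531, plus strand), the coactivator of class I promoters, was low, at 2.05, 1.63 and 2.51 CPM in shNTC+Dox and 1.90, 1.02 and 1.65 CPM in shEHD1+Dox. Its groups overlapped, with shEHD1+Dox replicate 2 the lowest library at 25 counts. The fitted log2 FC of -0.43 had a wide interval of -1.10 to 0.25 (SE 0.30, edgeR adjusted p = 0.364), which covers values on both sides of 0.

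The libraries did not order the 9 genes alike. The control replicate 3, which stood apart from the other controls over all genes, was the lowest of its group for HLA-B, HLA-C, HLA-E, HLA-F, B2M and TAP1, and the highest for TAP2, TAPBP and NLRC5. Among the shEHD1+Dox libraries, replicate 2 was the lowest for HLA-B, HLA-E, B2M, TAP1, TAP2 and NLRC5. The mean of the 9 genes, each standardized over the libraries on the log2 CPM scale, was -0.20, -0.18 and -0.77 in shNTC+Dox, against 0.83, -0.21 and 0.53 in shEHD1+Dox, so that shEHD1+Dox replicate 2 lay among the controls. Without shNTC+Dox replicate 3, HLA-E had a log2 FC of 0.37 (edgeR adjusted p = 0.0234) and TAP1 of 0.49 (edgeR adjusted p = 0.128).

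The rest of the pathway was counted over 43 further genes in 7 lists, drawn up with earlier results of these data known. Of the 42 tested, 10 rose and 2 fell (12 higher and 5 lower at an unadjusted p under 0.05), with a median log2 FC of 0.02. Of all genes tested, 8.59% were called higher and 8.75% lower (16.0% and 16.3% at an unadjusted p under 0.05). These shares are the comparison for every list count below. The peptide trimming enzymes held the largest group of calls, 4 higher and 1 lower of 7, with a median of 0.27. ERAP2, an aminopeptidase of the endoplasmic reticulum, was at 10.7, 11.1 and 8.51 CPM in shNTC+Dox and at 22.6, 22.5 and 23.9 CPM in shEHD1+Dox. The control libraries lay at less than 12 CPM and the others above 22 CPM, and the log2 FC was 1.18 (SE 0.12, edgeR adjusted p = 6.06e-04). Its partner ERAP1 rose from 24.2 ± 0.28 to 34.8 ± 2.30 CPM (SD, n = 3 each), a log2 FC of 0.52 (SE 0.08, edgeR adjusted p = 0.00398). ERAP1 and ERAP2 kept their calls under every alternative run. LNPEP, an endosomal aminopeptidase of cross-presentation, rose by 0.47 (edgeR adjusted p = 0.0127), and THOP1, a cytosolic peptidase that destroys peptides, fell by 0.49 on the log2 scale (edgeR adjusted p = 0.0124). LNPEP lost its call without shEHD1+Dox replicate 3 (adjusted p = 0.0527) and THOP1 without shEHD1+Dox replicate 1 (adjusted p = 0.0582). NRDC, the remaining call of the list and named after its value was seen, had a log2 FC of 0.27 (edgeR adjusted p = 0.0272), a call lost without shNTC+Dox replicates 1 or 2 and without shEHD1+Dox replicates 1 or 3 (adjusted p = 0.0675 to 0.114).

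Of the 4 peptide loading genes beside TAPBP, 1 rose, CALR (calreticulin, which holds the heavy chain during loading), from 552 ± 59.2 to 684 ± 22.5 CPM (log2 FC 0.31, edgeR adjusted p = 0.0397), a call that was lost in 5 of the 6 fits without a library, all but that without shNTC+Dox replicate 3, with adjusted p-values of 0.0765 to 0.134. The chaperone CANX had -0.06 (edgeR adjusted p = 0.641), the oxidoreductase PDIA3 0.05 (0.735) and TAPBPL, a second peptide editor, -0.17 (0.551). Of 7 other class I genes, 1 rose, MR1, which presents microbial metabolites to MAIT cells, from 13.2 ± 2.50 to 19.2 ± 2.56 CPM (log2 FC 0.54, edgeR adjusted p = 0.0487), and it lost its call without shNTC+Dox replicates 1 or 3 and shEHD1+Dox replicates 1 or 3, with adjusted p-values between 0.0534 and 0.159. The NKG2D ligand MICA had -0.49 (edgeR adjusted p = 0.172), and without shNTC+Dox replicate 3 it was called, at -0.70 (edgeR adjusted p = 0.00424). Its relative MICB had 0.16 (0.341), the iron regulator HFE -0.14 (0.351) and HLA-G, a nonclassical heavy chain, 0.18 (0.594).

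The proteasome genes gave 1 call. None of the 4 tested genes of the immunoproteasome and its PA28 activator passed (1 higher at an unadjusted p under 0.05, 0 by DESeq2). PSMB8, an inducible catalytic subunit, was at 1.68 ± 0.11 and 2.12 ± 0.49 CPM (log2 FC 0.33, edgeR adjusted p = 0.392), PSMB10 had 0.01 (0.990), and the PA28 subunits PSME1 and PSME2 had 0.16 (0.146) and -0.0003 (0.998). PSMB9, the neighbour of TAP1, had 0, 9 and 4 counts in shNTC+Dox, against 7, 0 and 13 in shEHD1+Dox, too few to test. Of the 3 constitutive catalytic subunits, PSMB5 fell from 245 ± 3.82 to 195 ± 17.7 CPM (log2 FC -0.33, edgeR adjusted p = 0.0201) and lost its call without shNTC+Dox replicates 1 or 2 and without shEHD1+Dox replicate 1, while PSMB6 had -0.13 (0.315) and PSMB7 0.07 (0.608).

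Of 13 factors that bind or act at class I promoters, 2 rose and none fell, against 8.59% and 8.75% of all genes tested. The median was -0.03, 3 were lower at an unadjusted p under 0.05 (16.3% of all genes), and DESeq2 called 0 lower. NFKB1, which encodes the p50 subunit of NF-κB, was at 24.4, 24.1 and 21.5 CPM in shNTC+Dox and at 42.4, 39.5 and 41.1 CPM in shEHD1+Dox, with a log2 FC of 0.81 (SE 0.08, edgeR adjusted p = 5.41e-04). All of its shEHD1+Dox libraries were far above the controls, and the call held under every alternative run. IRF2, an IRF factor, rose from 10.0 ± 1.23 to 15.5 ± 1.69 CPM (log2 FC 0.62, edgeR adjusted p = 0.0158), and 4 of the 6 fits without a library gave it adjusted p-values of 0.0510 to 0.0707, those without shNTC+Dox 1, shNTC+Dox 2, shEHD1+Dox 1 or shEHD1+Dox 3. The NF-Y subunit NFYA had -0.26 (edgeR adjusted p = 0.0840) and CREB1 -0.17 (0.136). Without shEHD1+Dox replicate 2, NFYA was called, at -0.34 (edgeR adjusted p = 0.0491).

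Of the 4 genes of the interferon γ receptor and its kinases, the receptor chains IFNGR1 and IFNGR2 rose, by 0.34 and 0.29 (edgeR adjusted p = 0.0377 and 0.0283). The kinases JAK1 and JAK2 had 0.25 and 0.24 (0.0752 and 0.173), and DESeq2 called JAK1 (DESeq2 adjusted p = 0.0175). IFNGR1 lost its call in 5 of the fits without a library, all but that without shNTC+Dox replicate 3, and IFNGR2 in 4, all but those without shNTC+Dox replicate 3 or shEHD1+Dox replicate 2. Of the type I interferon-stimulated genes, 20 of 25 were tested. Of these, 5 rose and 5 fell, against 8.59% and 8.75% of all genes tested, with a median of 0.21. The antiviral effector IFIT2 rose from 5.39 ± 0.77 to 11.4 ± 0.68 CPM (log2 FC 1.07), while the viral tether BST2 had a log2 FC of -3.23, OAS3, a sensor of double-stranded RNA, -1.23 and IFI44 -1.17 (edgeR adjusted p = 0.00230, 5.20e-06, 0.00133 and 8.50e-04). Genes of interferon response thus moved in both directions here.

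MHC class II genes, which professional antigen presenting cells express, were near the floor. Of 10 listed, 4 had no count in any library, HLA-DRA, HLA-DRB1, HLA-DQA1 and HLA-DQB1, and the sum of the 10 was 2.73 to 6.83 CPM in shNTC+Dox and 5.36 to 7.59 CPM in shEHD1+Dox. None of the 4 tested passed (0 at an unadjusted p under 0.05, and 0 by DESeq2). HLA-DMA had a log2 FC of 0.30, HLA-DPA1 of 0.34, HLA-DMB of 0.24 and the class II coactivator CIITA, with 0, 32 and 0 counts in shNTC+Dox, against 26, 47 and 0 in shEHD1+Dox, of 1.20 (edgeR adjusted p = 0.500, 0.676, 0.723 and 0.681).

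**Figure D4:**
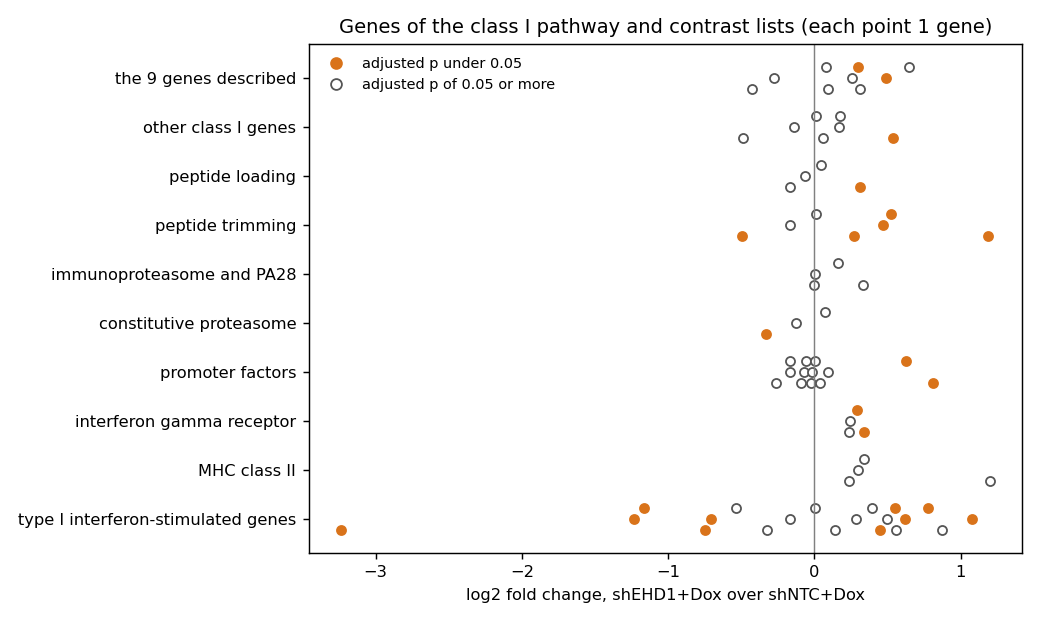
Log2 fold change, shEHD1+Dox against shNTC+Dox, of every tested gene on each list; each point is a gene, filled where the edgeR adjusted p was under 0.05. The peptide trimming list holds 5 of the filled points, with ERAP2 at 1.18, and the interferon-stimulated genes run from -3.23 for BST2 to 1.07 for IFIT2.

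All of the genes except B2M and NLRC5 lie in the MHC region of chromosome 6, between 29722775 and 33314284 in GRCh38. Of the 309 other genes listed in this stretch, 113 were tested, and 7 were called higher and 8 lower, with 56 above and 57 below 0. Over all genes tested, 8.59% were called higher and 8.75% lower. The 7 class I genes of the stretch were interleaved with these neighbours. The neighbours share the location but are not all of other function. HLA-G, MICA, MICB, PSMB8 and the class II genes HLA-DMA, HLA-DMB and HLA-DPA1 are among them.

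**Figure D5:**
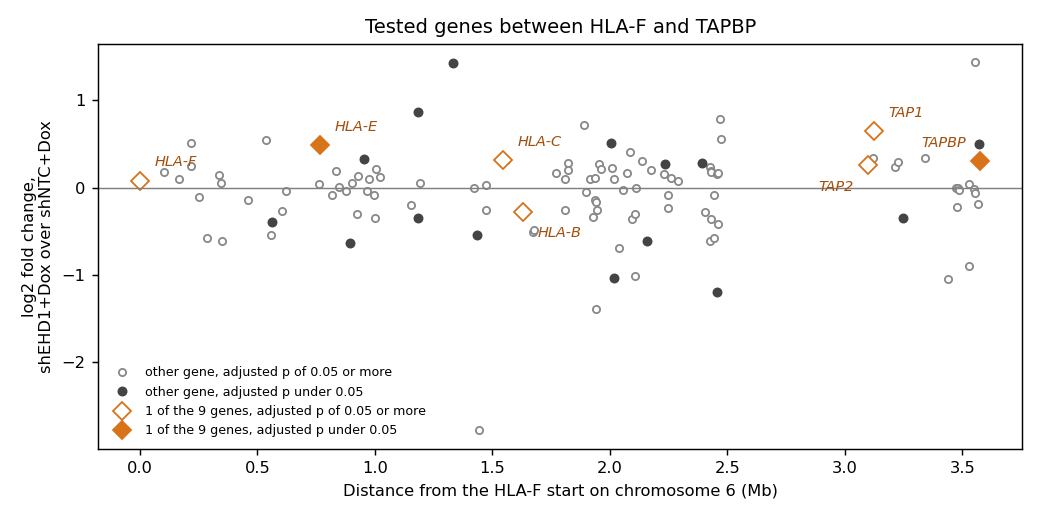
Log2 fold change of tested genes by distance along the MHC region of chromosome 6 (megabases from the region's first base), with the class I genes named. The neighbours lie on both sides of 0, 56 above and 57 below, while HLA-C, HLA-E, HLA-F, TAP1, TAP2 and TAPBP lie above 0 and HLA-B below.

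The genes most like the 9 in their pattern over the 6 libraries were found by Pearson's r with the mean of the members' standardized log2 CPM, among 10982 genes of at least 5 CPM. They were NELFE (r = 0.996), a subunit of a complex that pauses RNA polymerase, MVB12A (0.994), an ESCRT-I subunit, and the DNA polymerase POLB (0.993). The transcription factor TEAD2 (0.990) and the adaptor APBA2 (0.990) came next. NELFE lies in the MHC region and is among the neighbours counted above. The 6 points share their libraries and depth, 3.56% of the genes had an r over 0.9, and none of these 5 genes passed the test between groups (edgeR adjusted p = 0.217, 0.0918, 0.332, 0.152 and 0.109).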

How the data were processed

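The authors deposited raw, whole-number counts per gene, without normalization. Their paper names paired-end TruSeq libraries, alignment to hg38 with hisat2 and StringTie, whereas the submitters' processing notes name STAR 2.7.3a and DESeq2; how reads fitting several genes were counted is not given in the sources used here, and the kit keeps no strand. HLA genes vary between people, and reads that differ from the reference may have been lost; the alleles of TC71 were not examined. Counts were scaled by TMM and tested with edgeR 4.0.16 (glmQLFit, glmQLFTest; R 4.3.3) over genes reaching 10 counts in 3 or more libraries, and p-values were adjusted by Benjamini-Hochberg; the main design has no replicate block. Gene annotation came from GENCODE on GRCh38 (99.5% of identifiers found) and promoters from RefSeq. Members and lists were chosen with earlier results of these data known, and the motifs after the promoters were seen. Beside the members, the text names HLA-G, all immunoproteasome genes, of each other list the 4 genes with the smallest adjusted p, 5 genes of the MHC region and 5 with the most similar pattern. NRDC was named after its value was seen. One gene that the rule names is not reported here; other list genes enter by their counts and medians. Alternatives were DESeq2 1.42.0, other scaling and filters, glmTreat, the block and each library left out. The tests were checked on simulated data. Intervals reflect the spread between 3 libraries a group.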

Additional observations from a re-analysis of the deposited data

How the results depend on the processing

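Over the 9 class I genes and 11 alternatives each, 90 of 99 values kept their direction and their side of the threshold, and no called value reversed; that of HLA-F, not called, changed sign once. HLA-E, with a log2 fold change of 0.37 to 0.58 without a library, TAPBP (0.24 to 0.34) and TAP2 (0.21 to 0.29) crossed the threshold in some of these fits, and the number of class I genes called ran from 0 (without shEHD1+Dox replicate 1 or 3) to 3 (without shNTC+Dox replicate 3). Without a library, the further pathway genes called numbered 4 to 13 rather than 12, all genes called 1322 to 3616 rather than 2910, and those of at least 2-fold 293 to 452 rather than 473, which was 39 with the 2-fold threshold tested within the model. The highest of these counts of all genes, class I genes and pathway genes came without shNTC+Dox replicate 3, which stood apart from the other controls; the cause was not tested.

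The replicate numbers did not pair the libraries: deviations of same-numbered libraries correlated at 0.07, -0.06 and -0.04 across genes. With the number as a block, 1766 genes were called, 1 class I gene (TAPBP, edgeR adjusted p = 0.0467) and 6 further pathway genes, and HLA-E, at 0.49, did not pass (edgeR adjusted p = 0.0695). Of the 9 genes, NLRC5 (25 to 56 counts a library), HLA-F (37 to 78) and TAP1 (62 to 192) had the widest intervals; how far depth sets them was not tested.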

Other observations

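Within the MHC region, 113 genes outside the 9 were tested, of which 7 were called higher in shEHD1+Dox and 8 lower. Over all genes tested, 8.59% were called higher and 8.75% lower. Of the 113, 56 had a log2 fold change above 0 and 57 below. The 5 with the smallest adjusted p follow, picked by that value alone. EHMT2, a histone H3 lysine 9 methyltransferase, stood at -0.61 on the log2 fold change scale (edgeR adjusted p = 0.00115), the mitochondrial ribosomal gene MRPS18B -0.64 (0.00121), the receptor gene AGER -1.20 (0.00532) and the bromodomain gene BRD2 -0.35 (0.00757). AL669830.2, whose span overlaps GTF2H4 and VARS2 on the same strand, had 0.87 (0.00703). Whether its counts come from reads of those genes was not tested.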
